A study of Gallus gallus with 8 samples.

Results

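The genes described here are the 177 whose array signal was high and nearly equal in the sensory epithelia of the chick utricle and cochlea, out of 14518 gene names on the array sheet. They were chosen by their measured signal: a mean log2 signal of at least 13 over the 4 utricle arrays and over the 4 cochlea arrays, with the means at most 0.5 apart. Of 38535 probe sets, 344 had a mean of at least 13 in both tissues, and 301 of these had means within 0.5. From these, 16 control probe sets, 30 probe sets with no gene name and 58 whose names begin like those of chosen families (ribosomal proteins, subunits of the respiratory chain, heat shock proteins and others) or are listed singly in the rule were left out. That left 197 probe sets, and the brightest was kept for each name. Because the tissue means chose the genes, tissue differences among them are given as a description, with no test.

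Utricle and cochlea were taken from chick embryos incubated at 38 °C to embryonic day 20 to 21, with no treatment or genetic change given in the labels. The utricle is a balance organ and the cochlea, in birds the basilar papilla, is the organ of hearing. Each of the 4 arrays per tissue, called biological replicates in the labels, held RNA from 10 to 20 pooled epithelia that had been dissected down to hair cells and supporting cells. The labels do not say whether arrays with the same number came from the same embryos.

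A sensory epithelium of the inner ear has hair cells, which turn movement of their bundles into electrical signals, and supporting cells, which surround them, are coupled by gap junctions and secrete the membranes above the bundles. Every cell also runs a common machinery that makes, folds and degrades proteins and supplies energy, and its transcripts are among the most abundant of any tissue. Signal on these arrays depends on the probes as well as on the RNA, so levels are compared between tissues for 1 probe set and not between genes. In a whole epithelium, fewer cells of a type and less RNA per cell cannot be told apart.

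The arrays were alike in range, with 40.98% to 41.77% of probe sets above a log2 signal of 4. The brightest signal of each array lay between 15.61 and 15.92. The authors' processing included quantile normalization, which itself makes arrays alike in range. The arrays numbered 2 stood apart in both tissues in heat shock genes that are not among the 177. HSPB9, a small heat shock protein, read 15.22 on utricle array 2 and 4.30 to 5.38 on the other utricle arrays, against 15.11 on cochlea array 2 and 5.48 to 6.81 on the other cochlea arrays. Utricle arrays 2 and 3 stood apart in another way, with CALB1, a calcium buffer of cochlear hair cells, at 7.47 and 6.89, where utricle arrays 1 and 4 read 2.49 and 2.50 and the cochlea arrays 15.33 to 15.42. A probe set of MBP, a myelin protein of glia, read 12.19 and 12.20 on the same arrays, 8.003 and 7.683 on utricle arrays 1 and 4, and 8.60 to 9.73 on cochlea arrays, while a second MBP probe set lay between 7.53 and 8.43 on all utricle arrays. Haemoglobin HBAD ranged from 6.13 to 11.36 over the utricle arrays and from 6.27 to 12.56 over the cochlea arrays. The summed signal of 19 hair cell markers was 15.30 to 15.58 on utricle arrays and 16.12 to 16.21 on cochlea arrays (log2). That of 12 supporting cell markers was 16.83 to 16.91 on utricle arrays and 17.00 to 17.24 on cochlea arrays. Of these 12, 4 were called higher in utricle and 5 in cochlea, and 3 did not pass (limma, adjusted p under 0.05). Over all tested probe sets, 26.4% were called higher in utricle and 25.1% in cochlea. The supporting cell list holds GJB6 and OTOGL, which are among the 177 and so bright and near-equal by choice. The hair cell list holds CALB1, which alone read 15.33 to 15.42 on the cochlea arrays, and CALB2, which was bright in utricle. Such a sum can rest largely on a single gene, so it does not measure hair cell or supporting cell content. The sums overlapped for endothelium (10.8 to 11.4 on utricle arrays, 10.92 to 11.24 on cochlea arrays). Of 9 listed endothelium markers 3 were tested, and all 3 were called, 1 higher in utricle and 2 higher in cochlea. An overlap of sums thus does not show that the markers were alike. The sums also overlapped for neurons and glia (7 of 13 listed markers tested), for fibroblasts and bone (2 of 16) and for erythrocytes (3 of 21). The sums for some other cells did not overlap between the tissues, though few of the listed markers were tested. These were 5 of 15 for leukocytes, 2 of 14 for muscle and 3 of 8 for melanocytes. The summed signal of 5 leukocyte markers was 12.05 to 12.36 on utricle arrays and 10.73 to 11.21 on cochlea arrays. Singly, 4 of the 5 were called higher in utricle and 1 higher in cochlea. The sum of 2 muscle markers was 8.61 to 9.07 on utricle arrays and 10.87 to 11.17 on cochlea arrays. That of 3 melanocyte markers was 12.16 to 12.49 on utricle arrays and 10.21 to 10.70 on cochlea arrays. The part of these differences in the values below was not tested. Without both arrays numbered 2 the choice gave 175 genes, of which 173 were among the 177, and without utricle arrays 2 and 3 it gave 179, of which 174 were.

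All 177 genes were detected on all 8 arrays in the authors' deposited present calls, and none was in the authors' deposited table of probe sets higher in utricle (2342 rows) or higher in cochlea (2301 rows). The rule asks for a high signal and bounds the difference, so neither is separate evidence. The median gene had a log2 signal between 13.75 and 13.86 on every array. The tissue means were within 0.1 of each other for 58 genes and within 0.25 for 124. The utricle mean was higher for 96 genes and the cochlea mean for 81, with a median difference of 0.02 (log2, utricle minus cochlea, here and below). The arrays of the tissues did not overlap for 68 genes, 34 with all utricle arrays above and 34 with all cochlea arrays above, or 38.4% of the genes. Of the 16223 tested probe sets, 48.7% did not overlap, with utricle above for 24.6% and cochlea above for 24.1%. The limma fit over all probe sets called 54 of the 177 (27 higher in utricle and 27 in cochlea), where it called 51.5% of all tested probe sets (26.4% higher in utricle and 25.1% in cochlea). With 1 array left out it called 34 to 48 of them (34 without cochlea array 3 and 35 without cochlea array 1), and without utricle arrays 2 and 3 it called 28. Nothing is read from these counts, since the rule bounds the difference.

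**Figure D1:**
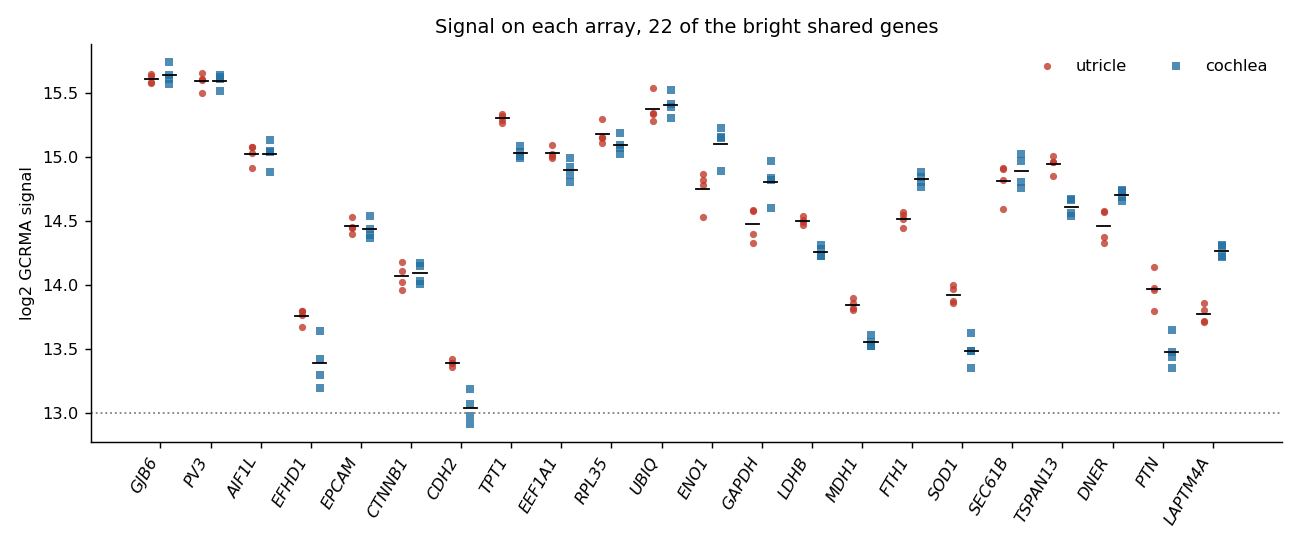
Log2 signal of 22 of the 177 genes on each array, with utricle arrays as circles left of cochlea arrays as squares; a bar marks the mean of 4 arrays and the dotted line the threshold of 13. GJB6, PV3, AIF1L and EPCAM lie at the same height in both tissues, while PTN, SOD1 and MDH1 lie higher in utricle and LAPTM4A, FTH1 and DNER higher in cochlea with no overlap.

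The brightest of the 177 was GJB6, which encodes a connexin that forms the gap junctions of supporting cells. Its log2 signal was 15.65, 15.58, 15.59 and 15.64 on utricle arrays 1 to 4, against 15.74, 15.57, 15.64 and 15.61 on cochlea arrays 1 to 4. The arrays of the tissues overlapped, and the difference was -0.03. A further GJB6 probe set, which also met the limits of the rule but was dimmer and not kept, gave means of 14.96 in utricle and 14.96 in cochlea. PV3, parvalbumin 3, a calcium buffer of bird hair cells, followed at 15.61, 15.51, 15.61 and 15.66 on utricle arrays and 15.62, 15.52, 15.62 and 15.64 on cochlea arrays. Its means differed by less than 0.01, and both tissues had their lowest value on array 2. GJB6 and PV3 lay near the top of each array's range, where the brightest signal was 15.61 to 15.92. Whether that narrows their differences and spread was not tested.

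OTOGL and OC90, genes of the acellular membranes above the epithelium, had a larger pooled spread than GJB6 and PV3. The rule left out the tectorin genes TECTA and TECTB by name, so they could not be members. OTOGL, related to the membrane protein otogelin, read 13.20, 13.09, 13.24 and 13.24 on utricle arrays and 13.40, 13.13, 13.25 and 13.85 on cochlea arrays, where array 4 was the high one. OC90, an otoconin of the mineral crystals on balance organs, read 14.12, 14.23, 14.26 and 12.05 on utricle arrays, against 11.91, 14.04, 13.65 and 14.29 on cochlea arrays. One array of each tissue was thus far below the others, utricle array 4 and cochlea array 1. A second OC90 probe set read 11.41, 11.50, 11.52 and 8.79 on utricle arrays and 8.81, 11.18, 10.85 and 11.52 on cochlea arrays, so the same arrays were low in it. The pooled SD of OC90 within a tissue was 1.08 (log2), against a median of 0.09 over the 177 genes. BSND, a chloride channel subunit known from ion-secreting cells of the inner ear, was chosen after its values were seen: it was also lowest on utricle array 4 (4.82, others 5.55 to 7.60) and on cochlea array 1 (others 5.62 to 6.74). Whether the 2 are linked was not tested. On a list of extracellular and junction genes of the inner ear, 32 tested genes were outside the group, of which 9 were called higher in utricle, 15 higher in cochlea and 8 did not pass (limma, adjusted p under 0.05). Over all tested probe sets, 26.4% were called higher in utricle and 25.1% in cochlea.

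Of the 6 calcium binding proteins, 4 had overlapping arrays, where 48.7% of all tested probe sets did not overlap. AIF1L, an actin-bundling protein with a calcium binding fold, averaged 15.03 ± 0.076 in utricle and 15.03 ± 0.10 in cochlea (mean ± SD over 4 arrays, as later values of this form). EFHD1, a mitochondrial calcium binding protein, was the one above in utricle on every array, at 13.80, 13.80, 13.77 and 13.67 against 13.30, 13.20, 13.64 and 13.42 in cochlea. URP, kept under its sheet name, was the one above in cochlea on every array, at a difference of -0.38. Calcium buffers outside the group differed far more: CALB2 (calretinin) averaged 14.70 in utricle and 8.77 in cochlea. Of 22 tested genes outside the group on a list of calcium sensors and adaptors, 3 were called higher in utricle, 13 higher in cochlea and 6 did not pass, where 26.4% and 25.1% of all tested probe sets were called.

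Adhesion and junction genes numbered 13, and 7 had overlapping arrays. All utricle arrays were above for 5 and all cochlea arrays for 1, against 24.6% and 24.1% of all tested probe sets. EPCAM, an epithelial adhesion molecule, averaged 14.46 ± 0.057 in utricle and 14.44 ± 0.075 in cochlea. CTNNB1, beta-catenin, which joins cadherins to actin and carries Wnt signals, averaged 14.07 ± 0.097 in utricle and 14.09 ± 0.085 in cochlea. The arrays of the tissues overlapped for both. CDH2, N-cadherin, was 13.42, 13.39, 13.39 and 13.36 on utricle arrays, against 12.92, 13.19, 13.07 and 12.98 on cochlea arrays, with no overlap (difference 0.35). SPTBN1, a spectrin of the membrane skeleton, differed by 0.26 and had the smallest SD of the group at 0.03. BSG, basigin, which carries lactate transporters to the membrane, lay the other way at 13.60 ± 0.096 in utricle and 14.01 ± 0.22 in cochlea. ACTG1, cytoplasmic gamma actin, entered under another sheet name and read 14.94 to 14.95 on utricle arrays and 14.82 to 15.00 on cochlea arrays. Of the 36 tested genes on a list of actin dynamics none was among the 177, and 5 of them were called higher in utricle and 20 higher in cochlea (limma, adjusted p under 0.05), where 26.4% and 25.1% of all tested probe sets were called. The rule leaves out the names ACTB and ACTG1, so ACTB could not be a member whatever its signal.

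Protein synthesis supplied the most members. There were 29 cytosolic ribosomal proteins, which the sheet lists under names that do not begin with RPL or RPS. Their means over 8 arrays lay between 13.10 and 15.14, and their differences between -0.35 and 0.33, with a median of 0.09. The utricle mean was higher for 22 and the cochlea mean for 7. All utricle arrays were above for 5 and all cochlea arrays for 2, against 24.6% and 24.1% of all tested probe sets. RPL35, of the large subunit, was 15.16, 15.12, 15.30 and 15.15 on utricle arrays and 15.10, 15.03, 15.07 and 15.19 on cochlea arrays, which overlap. RPS27A, made as a fusion with ubiquitin, was 14.38, 14.38, 14.53 and 14.33 on utricle arrays against 14.14, 14.13, 14.15 and 14.25 on cochlea arrays. RPS13 and RPS15, both of the small subunit, were the pair with cochlea above. RPS15 averaged 13.64 ± 0.12 in utricle and 13.99 ± 0.12 in cochlea, and RPS13 14.61 ± 0.055 in utricle and 14.87 ± 0.028 in cochlea. The means of ribosomal proteins lay in both directions, within the bound of the rule, and the arrays of the tissues overlapped for 22 of the 29. Utricle array 3 was the highest utricle array for 22 of the 29, and cochlea array 2 the lowest cochlea array for 20.

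Translation factors numbered 12, and 6 had all utricle arrays above while none had all cochlea arrays above, against 24.6% and 24.1% of all tested probe sets. TPT1, the translationally controlled tumour protein, read 15.29, 15.34, 15.32 and 15.27 on utricle arrays and 15.01, 15.00, 15.09 and 15.04 on cochlea arrays. Its arrays varied by an SD of 0.04 about means 0.27 apart. EEF1A1, the elongation factor that brings tRNA to the ribosome, averaged 15.03 ± 0.044 in utricle and 14.90 ± 0.080 in cochlea, with overlap. All 4 elongation factors (EEF1A1, EEF2, EEF1D and EEF1B2) had the higher mean in utricle, by 0.09 to 0.47. EIF5, which acts in start codon choice, was 14.16, 14.35, 14.13 and 14.23 on utricle arrays, against 13.66, 13.95, 13.71 and 13.66 on cochlea arrays. EIF3H, a subunit of the factor that joins mRNA to the ribosome, was 13.46, 13.56, 13.82 and 13.40 on utricle arrays against 12.99, 13.02, 13.17 and 13.25 on cochlea arrays. EIF4G2 and PAIP2, which hold translation in check or reroute it, had the higher mean in cochlea, with overlapping arrays and differences of -0.21 and -0.32. Of 27 tested translation genes of the list outside the 177, 5 were called higher in utricle, 9 higher in cochlea and 13 did not pass. The shares called over all tested probe sets were 26.4% higher in utricle and 25.1% higher in cochlea. EEF1A2, a second form of the elongation factor, was as bright (14.90 in utricle, 14.29 in cochlea) but stood 0.61 apart.

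RNA binding and splicing proteins numbered 15, with 11 higher in mean in utricle and 4 in cochlea. The helicase DDX5 read between 13.95 and 14.01 on the utricle arrays, against 13.65, 13.65, 13.65 and 13.73 on cochlea arrays, a gap of 0.31 with an SD of 0.03. RBM38, which binds and stabilises mRNAs, was 14.51, 14.38, 14.34 and 14.48 on utricle arrays and 14.21, 14.23, 14.09 and 13.92 on cochlea arrays. The splicing factors SRSF6 and SRSF1 differed by 0.22 and 0.18, and HNRNPH1 and HNRNPR by -0.17 and -0.06. CNBP, a zinc finger protein that binds nucleic acids, was the one with cochlea above on every array, at 13.13 ± 0.11 in utricle and 13.46 ± 0.10 in cochlea. Of 28 tested RNA binding and chromatin genes outside the group, 5 were called higher in utricle, 5 in cochlea and 18 did not pass. The shares called over all tested probe sets were 26.4% higher in utricle and 25.1% higher in cochlea. Among the 9 members with roles in chromatin and transcription, the arrays of the tissues overlapped for all 9. Over all tested probe sets, 48.7% did not overlap.

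**Figure D2:**
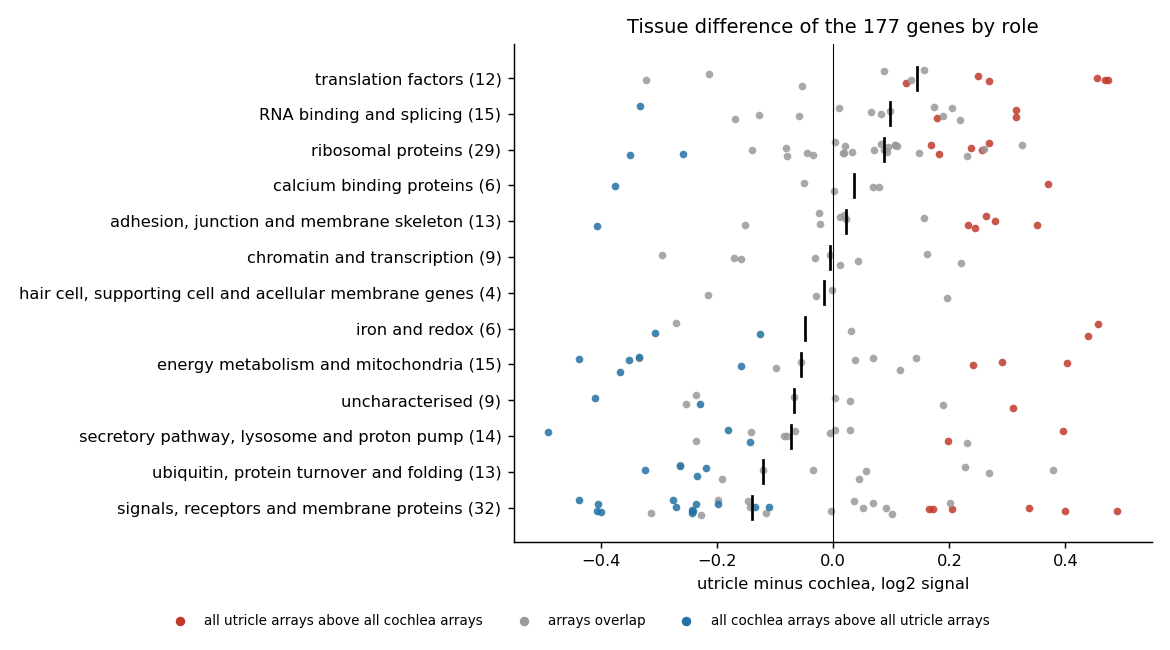
Difference of the tissue means (utricle minus cochlea, log2) for each of the 177 genes by role, with the number of genes in brackets and a bar at the median of each role. Translation factors have the highest median at 0.14 and signals, receptors and membrane proteins the lowest at -0.14; the choice of the genes bounds every point to 0.5 on either side.

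Energy metabolism and mitochondria supplied 15 genes, of which 7 had overlapping arrays. All utricle arrays were above for 3 and all cochlea arrays for 5, against 24.6% and 24.1% of all tested probe sets. ENO1, the enolase of glycolysis, read 14.83, 14.79, 14.87 and 14.54 on utricle arrays, against 15.16, 14.89, 15.15 and 15.23 on cochlea arrays. GAPDH, a glycolytic enzyme often used as a reference gene, read 14.58, 14.40, 14.59 and 14.33 on utricle arrays, against 14.84, 14.61, 14.82 and 14.97 on cochlea arrays. Neither overlapped, and in both the lowest cochlea array was array 2. LDHB, which favours turning lactate to pyruvate, ran the other way at 14.55, 14.47, 14.49 and 14.51 on utricle arrays against 14.28, 14.23, 14.23 and 14.32 on cochlea arrays. MDH1, the cytosolic malate dehydrogenase, was likewise above in utricle at 13.90, 13.81, 13.86 and 13.83, against 13.53, 13.53, 13.61 and 13.56 in cochlea. The import channel subunits split, with TIMM17A of the inner membrane 0.40 above in utricle and TOMM7 of the outer membrane at -0.37. VDAC2, a channel of the outer membrane, was 13.27, 13.20, 13.40 and 13.31 on utricle arrays, against 13.70, 13.70, 13.74 and 13.79 on cochlea arrays. COX4I1, UQCRH and SDHD of the respiratory chain overlapped between the tissues, at 0.12, -0.05 and -0.10. COX4I1 and UQCRH, like ATP5F1AZ and the heat shock gene HSPE1 below, entered under other sheet names. Genes of these families listed under the names left out could not be members.

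The other genes of the energy list were tested in the same fit, and they show what lies around these members. Of 29 tested genes that are not among the 177, 3 were called higher in utricle, 15 higher in cochlea and 11 did not pass, with a median difference of -0.36, where 2210 of all 8295 tested genes were called higher in utricle and 2206 in cochlea (median 0.00). Further enzymes of glycolysis were also brighter in cochlea. PGAM1 (12.75 in utricle) differed by -1.25. TPI1 averaged 13.17 in utricle and 14.12 in cochlea, and PGK1 13.29 in utricle and 14.07 in cochlea. The rule bounds ENO1 and GAPDH to 0.5, so their smaller differences are not read as a result. A dimmer ENO1 probe set, which the rule does not bound, differed by -0.90. LDHA, the partner of LDHB in lactate dehydrogenase, averaged 13.24 in utricle and 13.96 in cochlea, opposite in direction to LDHB. CKB, brain creatine kinase, averaged 15.26 in utricle and 13.31 in cochlea and was the largest difference among named genes bright in both tissues, at 1.95. TPI1, PGK1, LDHA and CKB were bright in both organs as well, and the bound of 0.5 alone kept them out, while PGAM1 was below the threshold in utricle.

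**Figure D3:**
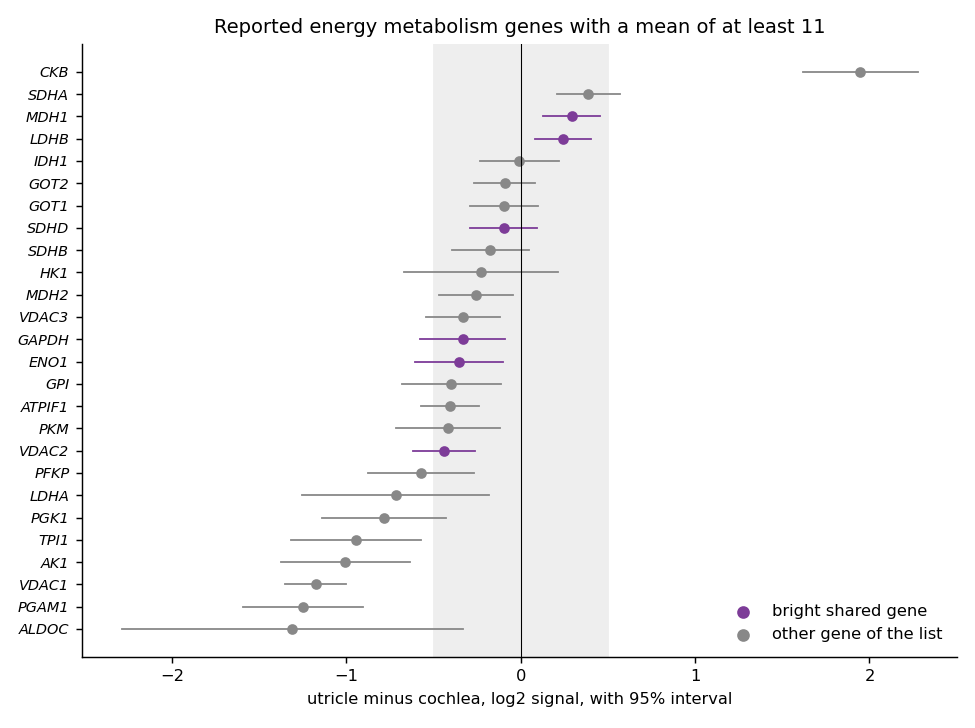
Difference of the tissue means (utricle minus cochlea, log2, with 95% intervals from the limma fit) for the reported genes of the energy list with a mean signal of at least 11, with the 177 in purple and other genes in grey; the band marks 0.5 on either side. MDH1 and LDHB lie right of 0, and GAPDH, ENO1 and VDAC2 left of it. Most grey glycolytic genes lie further left than ENO1, whose difference the rule bounds to 0.5.

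Iron storage and redox genes split by direction. FTH1, the ferritin heavy chain, read 14.44, 14.55, 14.57 and 14.52 on utricle arrays and 14.81, 14.77, 14.88 and 14.85 on cochlea arrays. SOD1, which removes superoxide, averaged 13.93 ± 0.069 in utricle, with no array below 13.86, against 13.48, 13.63, 13.49 and 13.36 on cochlea arrays. No arrays overlapped for either, with cochlea above for FTH1 and utricle above for SOD1. PRDX1, a peroxidase, was above in utricle by 0.46, and TXN, the thioredoxin that reduces it, stood at 14.29 ± 0.19 in utricle and 14.56 ± 0.15 in cochlea with overlap. Outside the group, 4 of 19 tested genes of the list were called higher in utricle and 10 in cochlea, against 26.4% and 25.1% of all tested probe sets. FTL, the ferritin light chain, averaged 8.94 in utricle and 9.96 in cochlea.

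The secretory pathway, lysosomes and the proton pump supplied 14 genes, 9 of them with overlap. Utricle was above for 2 and cochlea for 3, against 24.6% and 24.1% of all tested probe sets. SEC61B, of the channel that takes new proteins into the endoplasmic reticulum, averaged 14.81 ± 0.15 in utricle and 14.89 ± 0.13 in cochlea. RPN1, DAD1 and DDOST belong to the complex that attaches sugar chains to new proteins. RPN1 averaged 13.67 in both tissues, and DAD1 13.42 in utricle and 13.57 in cochlea. DDOST varied from array to array, at 12.55, 13.57, 13.77 and 13.33 on utricle arrays and 12.89, 12.61, 13.39 and 13.42 on cochlea arrays. A second DDOST probe set was steadier, at 12.07 to 12.30 on utricle arrays and 11.86 to 12.11 on cochlea arrays. LAPTM4A, a membrane protein of lysosomes, had the largest difference of the 177 toward cochlea: it read 13.81, 13.72, 13.86 and 13.71 on utricle arrays, against 14.22, 14.31, 14.31 and 14.23 on cochlea arrays, or 1.41-fold. LAMP1, a structural protein of the same membrane, went the other way, at 13.91 ± 0.13 in utricle and 13.51 ± 0.083 in cochlea. The proton pump genes ATP6AP2, ATP6V1G1 and ATP6V1A, which acidify these compartments, all had the higher mean in cochlea, by 0.09 to 0.18. Of 33 tested genes outside the group on the secretory list, 6 were called higher in utricle, 4 higher in cochlea and 23 did not pass. Among all tested probe sets, 26.4% were called higher in utricle and 25.1% in cochlea.

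Signals, receptors and other membrane proteins formed the widest group with 32 genes, 6 with all utricle arrays above and 13 with all cochlea arrays above, against 24.6% and 24.1% of all tested probe sets. PTN, pleiotrophin, a secreted growth factor, had the largest difference of the 177 toward utricle: it read 13.98, 13.80, 13.96 and 14.14 on utricle arrays, against 13.36, 13.44, 13.48 and 13.65 on cochlea arrays, or 1.40-fold. DNER, a Notch-binding receptor, averaged 14.46 ± 0.13 in utricle and 14.71 ± 0.039 in cochlea. APP, the amyloid precursor protein, averaged 14.51 ± 0.070 in utricle and 14.31 ± 0.029 in cochlea, and TSPAN13, a tetraspanin, 14.95 ± 0.066 in utricle and 14.61 ± 0.069 in cochlea. Among the YWHA adaptor proteins, which bind phosphorylated partners, YWHAZ, YWHAQ and YWHAE each had the higher mean in cochlea, by 0.14, 0.20 and 0.28, with no overlap of arrays. Their relatives YWHAG and YWHAH, outside the group, were called higher in cochlea at -0.43 and -0.41, while YWHAB at 0.05 did not pass. CST3, cystatin C, an inhibitor of secreted proteases, averaged 14.21 ± 0.055 in utricle and 14.62 ± 0.092 in cochlea. CLCA2, of a family of chloride channel regulators, averaged 13.14 ± 0.10 in utricle and 13.57 ± 0.036 in cochlea. ITM2A and CD81, which sit in the membrane, differed by 0.04 or less in mean.

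Protein turnover and folding supplied 13 genes; none had all utricle arrays above, and 4 had all cochlea arrays above, against 24.6% and 24.1% of all tested probe sets. The utricle mean was higher for 5 of the 13 and the cochlea mean for 8. UBIQ, polyubiquitin, which tags proteins for degradation, read 15.34, 15.54, 15.28 and 15.34 on utricle arrays and 15.39, 15.53, 15.42 and 15.30 on cochlea arrays. The tissues overlapped and array 2 was the highest in each. SKP1, an adaptor of ubiquitin ligases, was 13.69, 13.59, 13.66 and 13.46 on utricle arrays, against 14.01, 13.92, 13.92 and 13.84 on cochlea arrays. OAZ1, antizyme, which sends the polyamine enzyme ornithine decarboxylase to degradation, averaged 14.65 ± 0.036 in utricle and 14.87 ± 0.075 in cochlea. SUMO2, a small modifier, and VCP, which extracts tagged proteins, had means 0.26 higher in cochlea. The 5 with the higher mean in utricle, all with overlapping arrays, were TCP1 (0.38), WSB1 (0.27), HSPE1 (0.23), ARIH1 (0.06) and RNF13 (0.04). Further ARIH1 probe sets lay the other way with no overlap, at 10.49 in utricle and 11.35 in cochlea, and 10.26 in utricle and 11.07 in cochlea. Of 24 tested genes of the ubiquitin and SUMO list outside the group, none was called higher in utricle, 14 were called higher in cochlea and 10 did not pass (median -0.35), where 26.4% of all tested probe sets were called higher in utricle and 25.1% in cochlea. The hydrolase UCHL1 averaged 9.63 in utricle and 11.93 in cochlea, while UBB averaged 10.68 in utricle and 10.67 in cochlea.

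The spread between arrays of 1 tissue was not used in choosing the genes. The median pooled SD was 0.09 over the 177 genes (interquartile range 0.07 to 0.13), 0.20 over all tested probe sets and 0.14 over probe sets with a mean of 10 to 13. Among 215 probe sets with a mean of at least 13 that are not members, it was 0.11. The SD was under 0.1 for 95 members and above 0.3 for 3, which were OC90 (1.08), DDOST (0.47) and TCP1 (0.33). Spread fell with signal over the whole array, so the bright genes are described beside probe sets of like signal and no test was made.

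**Figure D4:**
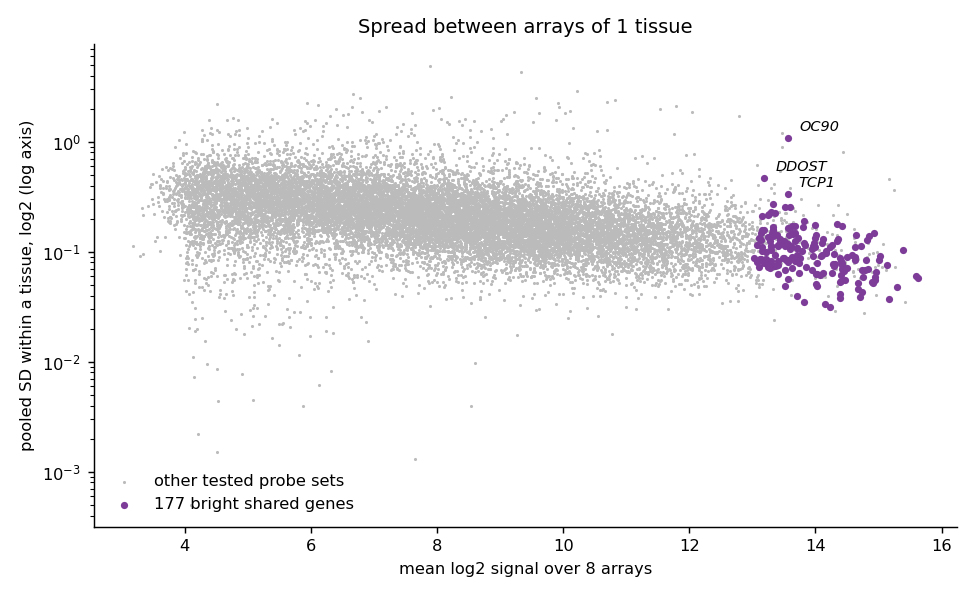
Pooled SD of log2 signal within a tissue (log axis) against mean log2 signal over 8 arrays, 1 point per tested probe set, with the 177 genes in purple. The middle of the purple points lies between 0.07 and 0.13, and OC90, DDOST and TCP1 stand above them.

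Arrays with the same number could be compared across tissues, a contrast the choice of genes did not use. The limma F test over the replicate numbers called none of the 177 genes (Benjamini-Hochberg adjusted p under 0.05), and 26 of 16223 probe sets, or 0.16%, were called. At an unadjusted p under 0.05 it listed 9 of the 177, or 5.08%, against 19.2% of all tested probe sets. The fit drew the spread of each probe set toward a common value, although spread fell with signal. A fit whose spread follows signal was not run for this test, so the lower share is not read as less variation. For the tissues such a fit, with robust settings, called 76 of the 177 genes, against 54 in the main fit. TCP1, a subunit of the chaperonin that folds actin and tubulin, had the largest F: it read 13.56, 14.19, 13.61 and 13.65 on utricle arrays and 13.20, 13.92, 13.18 and 13.18 on cochlea arrays (F = 19.1, adjusted p = 0.116). Array 2 was the highest in both tissues by a wide margin. ATP5F1AZ, an alpha subunit of the mitochondrial ATP synthase, was highest on the arrays numbered 1, at 13.74, 13.27, 13.12 and 13.49 on utricle arrays and 13.61, 13.06, 13.03 and 13.35 on cochlea arrays (F = 14.6, adjusted p = 0.133). PTBP1, a splicing repressor, was lowest there, at 12.97, 13.43, 13.32 and 13.51 on utricle arrays and 12.91, 13.35, 13.29 and 13.29 on cochlea arrays (F = 8.60, adjusted p = 0.185). GRAMD1C, a sterol carrier, was lowest on the arrays numbered 2, at 12.73 in utricle and 13.01 in cochlea (F = 8.52, adjusted p = 0.186). YBX1, an mRNA binding protein, was lowest on the arrays numbered 1 and highest on those numbered 4 in both tissues (F = 6.03, adjusted p = 0.231).

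The arrays numbered 2 were highest for most calls of this test outside the group: of the 26 probe sets, 19 had their highest value there in both tissues. They included HSPB9 (adjusted p = 0.00784), HSPH1 (adjusted p = 0.0292) and DNAJA4 (adjusted p = 0.0451), all chaperones of the heat shock response. Without the arrays numbered 2 the test called 0 probe sets, as it did without those numbered 1, and without those numbered 3 it called 3. Members of the bright group with both arrays numbered 2 highest numbered 11, or 6.21%, against 12.4% of all tested probe sets. They were ATF4, CANX, DDX3X, EIF5, HSPE1, PDIA4, SEC61B, SERF1A, TCP1, UBIQ and the uncharacterised Q5ZJW1_CHICK. HSPE1 (the mitochondrial co-chaperonin), CANX and PDIA4 (chaperones of the endoplasmic reticulum) fold proteins, and ATF4 switches on genes of the stress response. These genes were picked from the 11 for their roles. As the share of 6.21% is below that of all tested probe sets, no stress response of the group is read from them. Members lowest on both arrays numbered 2 were more numerous at 32, or 18.1%, against 13.3% of all tested probe sets, and included GJB6, PV3, EPCAM and TXN besides the ribosomal proteins RPL35, RPS6, RPL27, RPL19, RPL17, RPS4 and RPL4. The median member deviated from its tissue mean by -0.04 on utricle array 2 and by -0.03 on cochlea array 2. The median tested probe set deviated by -0.03 on utricle array 2 and by 0.01 on cochlea array 2.

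**Figure D5:**
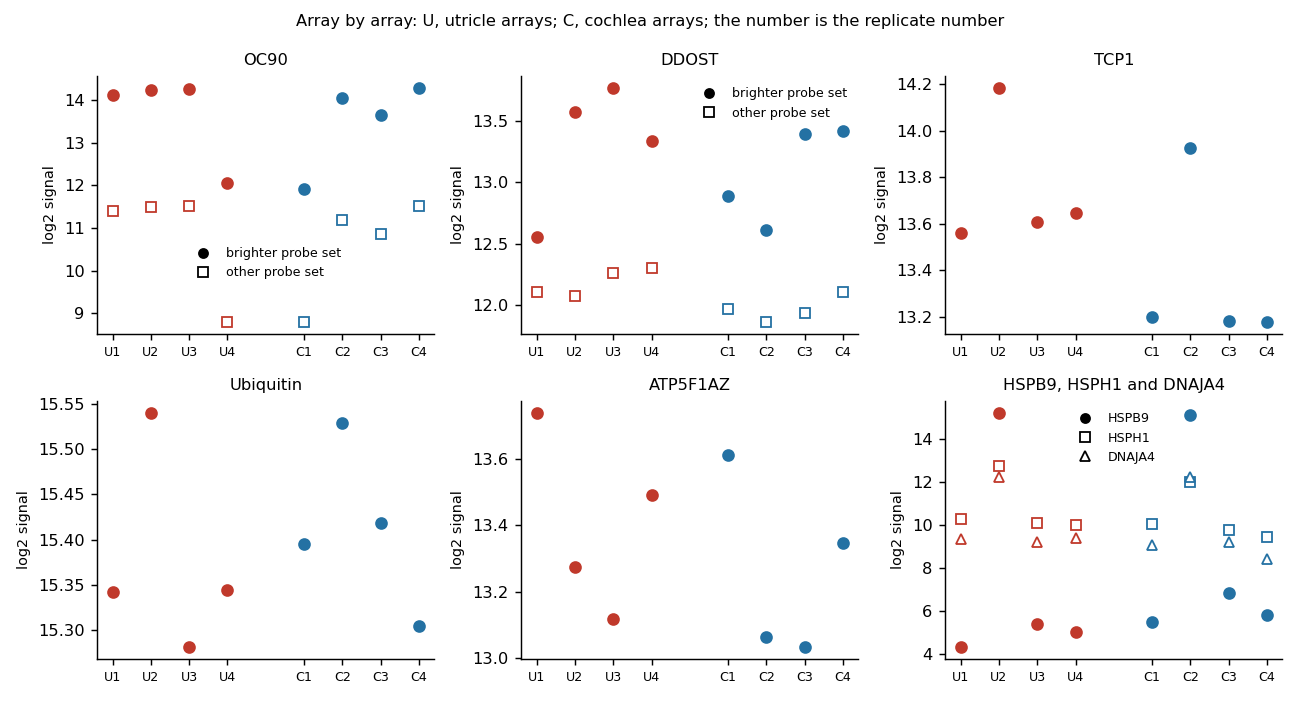
Log2 signal array by array for members that varied within a tissue (OC90 and DDOST with 2 probe sets each, TCP1, ubiquitin and ATP5F1AZ) and for 3 heat shock genes that are not members; each panel has its own axis. TCP1 and ubiquitin are highest on the arrays numbered 2, where HSPB9, HSPH1 and DNAJA4 are far above their other arrays, and both OC90 probe sets are low on utricle array 4 and cochlea array 1.

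The array names in the workbook carry a prefix that sets array 1 of each tissue apart from arrays 2 to 4. This contrast is part of the one between replicate numbers, on the same arrays, and adds no separate evidence. With tissue in the model, the prefix was called for none of the 177 genes, where 0.875% of tested probe sets were called. At an unadjusted p under 0.05 it listed 5 members, or 2.82%, against 13.3% of probe sets, a lower share with the same limit as in the replicate test. PTBP1 had the smallest p of the 5, with a mean 0.43 higher under the larger prefix, that of arrays 2 to 4 (adjusted p = 0.0816), and ATP5F1AZ had a difference of -0.46 on the same contrast (adjusted p = 0.181). What the prefix stands for is not given in the sources used here.

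Other probe sets of the same genes bear on whether a near-equal signal belongs to the gene or to the probe set. For 84 of the 177 genes the array carries 142 further probe sets, of which 112 from 73 genes passed the filter on low signal. Of these, 92 (82.1%) also had tissue means within 0.5, against 57.0% of all tested probe sets, and 20 did not, 9 higher in utricle and 11 in cochlea. These probe sets were brighter than most, with a median signal of 11.19, and 22 of the 112 were themselves bright and near-equal by the limits of the rule. Among the other 90, 70 had means within 0.5 (77.8%). Among the 50 of the 112 with a mean of 10 to 13, 38 did, against 62.6% of all tested probe sets of that signal. Among members, 35 genes with a difference of at least 0.2, a limit set after the values were seen, had 52 of the 112 further probe sets. As several share a gene, they are not 52 separate checks. Of the 52, 51 had the same sign as the member, and 44 of 45 did without those that met the limits. The exception was DLG1, a scaffold of cell junctions, at 0.24 in the member and -0.09 in 1 of its further probe sets. Members with smaller differences are not in this count, and for several of them a further probe set had the other sign. ARIH1 stood at 0.06 in the member and at -0.86 and -0.81 in further probe sets. RPL27 stood at 0.09 in the member and -0.39 in a further probe set, and CIRBP at -0.13 and 0.34. Others had the same sign. Further from 0 than the member were 33 of the 52, with a median size of 0.38 against 0.28 for the members, although the rule bounds the member and not the others. For PTN the further probe set averaged 10.91 in utricle and 10.07 in cochlea (0.84, member 0.49), and for ENO1 11.90 in utricle and 12.79 in cochlea (-0.90, member -0.35). SEC61B was the widest disagreement: a dim probe set averaged 9.24 in utricle and 7.46 in cochlea (1.78), another 12.30 in utricle and 12.78 in cochlea (-0.48), and the member differed by -0.08.

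Values just inside and just outside the limits of the rule lay close together. NDFIP1, an adaptor of ubiquitin ligases, was the member nearest the threshold, with a utricle mean that rounds to the threshold and a cochlea mean of 13.27, and HSPE1, ATP6V1A and FAM32A followed with lower means of 13.02. PPIB, a cyclophilin of the endoplasmic reticulum, fell just outside at 13.35 in utricle and 12.99 in cochlea. On the other limit, LAPTM4A (-0.49), PTN (0.49), EIF5 (0.47), EEF1B2 (0.47) and PRDX1 (0.46) were the last inside. RHOA, a switch of the actin skeleton, was the first outside at -0.54, followed by HSPA5 at 0.55, the main chaperone of the endoplasmic reticulum. With the threshold lowered by 0.5 the rule gave 265 genes, and with it raised by 0.5 it gave 106.

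A further 43 probe sets were as bright in both tissues but more than 0.5 apart. TMSB4X, thymosin beta, which binds free actin, averaged 14.16 in utricle and 15.78 in cochlea, and ACTB, beta actin, 13.81 in utricle and 14.86 in cochlea. ACTG1, its close relative among the 177, stood at 14.95 in utricle and 14.93 in cochlea. ATP1B1, the beta subunit of the sodium pump, averaged 13.06 in utricle and 14.24 in cochlea, and its relative ATP1B3, a member, 13.65 in utricle and 13.48 in cochlea.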

How the data were processed

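The deposited values are log2 signals of Affymetrix chicken probe sets. The authors made them with GCRMA (background correction, quantile normalization and median polish), per the submitters' processing notes and the notes in the file headers; no version is given in the sources used here. The authors' deposited SAM comparison gives a fold ratio and a q-value, and was used only to look members up. A further 136 columns with values or calls per array were not used.

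The members and the gene lists were chosen with earlier results of these data known. Names came from the sheet, from a RefSeq table (assembly GRCg7b, names only; 104 members) and by hand from the sheet's descriptions (62), and 11 kept the sheet name. Probe sets above 4 on at least 4 of 8 arrays were tested (16223) with limma 3.58.1 in R 4.3.3 (lmFit, eBayes, two-sided; F test for replicate numbers), adjusted by Benjamini and Hochberg over all of them. Tables and figures used Python 3.11.15, pandas 2.3.3 and matplotlib 3.10.9. The fits were tested on simulated data.

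Genes were named by rule: in each list the 3 brightest and 2 most variable members, the 5 largest differences in each direction without overlap, 5 at each limit, members of families and the 5 largest replicate F. Other genes were named after their values were seen, to show each role, and some named genes are not reported here. The number of arrays limits the precision, and p-values measure the spread between these samples, which may be technical.

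Deviations of same-numbered arrays from their tissue means correlated at 0.552, 0.480, 0.404 and 0.144 for numbers 1 to 4. Each exceeded 0.1, a low limit, and number was used to pair arrays on the strength of the data alone, as no label explains the numbers. The tissue calls quoted in the text come from a fit without the number, and the fit with it as a block is among the alternatives. The fourth cochlea array had a higher correlation (0.304) with the third utricle array than with its own number, so the values do not show that the arrays numbered 4 are a pair. Alternatives were other thresholds, filters and normalizations, the replicate number as a block and leaving arrays out; those for the prefix, the arrays numbered 2 and utricle arrays 2 and 3 were chosen after seeing the data.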

Additional observations from a re-analysis of the deposited data

Results flagged for a closer look

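In 10 instances among 186 sets of 4 arrays (93 genes named by rule, 2 tissues), 1 array lay apart from its group by more than Dixon's 95% limit, where chance gives about 1 in 20. OC90 was low on utricle array 4 (12.05), with a gap of 2.07 to the next array, and TCP1 was high on utricle array 2 (14.19) and on cochlea array 2 (13.92), with gaps of 0.54 and 0.72. The other gaps were 0.38 or less: PTBP1 on cochlea array 1 (12.91), PRDX1 on utricle array 4 (13.42), RPL22 on utricle array 3 (14.23), Q5ZJI8_CHICK on utricle array 2 (13.13), YWHAE on cochlea array 1 (13.40), RPS4 on utricle array 3 (14.52) and DDX5 on cochlea array 4 (13.73). Over all 177 genes, 21 of 354 such sets did. The cause was not tested.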

How the results depend on the processing

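The limma fit called 54 of the 177 genes and 8352 probe sets. With the replicate number as a block it called 56 genes and 9438 probe sets, and the pairing moved no count by over 1.5 times. Leaving out 1 array gave 34 to 48 genes (34 without cochlea array 3, 35 without cochlea array 1) and 7336 to 7991 probe sets. Within the larger prefix it called 28 genes and without utricle arrays 2 and 3 also 28, both with fewer samples; without both arrays numbered 2 it called 37, and the other settings gave 45 to 76. Of the 93 genes named by rule, the 26 that were called kept the sign of their difference under all settings run, and 17 of the other 67 had the other sign under at least 1 setting. Over all these settings 79 calls were lost and 45 gained. The replicate test called 26 probe sets, but none with no filter on low signal (the cause was not tested). Leaving out 1 number gave 0 to 25: 0 without number 1 or number 2, 3 without number 3 and 25 without number 4. At an unadjusted p under 0.05 it listed 3114 with all numbers. It called 0 of the 177 genes under every setting run. The rule gave 106 genes with the threshold raised by 0.5, 265 with it lowered by 0.5, and 172 to 180 with 1 array left out. The median spread of the members was 0.07 with the replicate block and 0.09 to 0.10 otherwise. The brightest signals lie near the top of each array's range, and whether that narrows differences was not tested.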
